A study of Mus musculus with 6 samples.

Results

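Fgf15 and 8 genes of bile acid handling were followed in RNA sequencing of sorted epithelial cells from the small intestine of C57BL/6 mice. The 9 genes were chosen by name for their place in the ileal bile acid pathway, with earlier results of these data known. All 9 were found among the 51912 genes of the tables. They are Fgf15, the hormone; Nr1h4 and Nr0b2, nuclear receptors; Slc10a2, Fabp6, Slc51a and Slc51b, which carry bile acids through the enterocyte; and Abcc2 and Abcc3, export pumps. Antigen-free (AF) mice met no foreign antigens from a microbiota or from food, germ-free (GF) mice lacked a microbiota, and specific pathogen free (SPF) mice were kept free of particular pathogens and are the colonised group. All were C57BL/6, with no other genotype or drug named, while the sources used here do not give the diets' composition, the ages and sexes, or whether mice were pooled. There were 2 libraries in each group, which keep the numbers of their titles: AF 2 and AF 3, GF 1 and GF 3, and SPF 3 and SPF 4.

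Bile acids made in the liver are taken up again at the end of the small intestine. There Slc10a2 brings them across the brush border, Fabp6 binds them in the cytosol, and the Slc51a and Slc51b proteins form the exporter toward the blood. Inside the cell bile acids activate the nuclear receptor FXR, the product of Nr1h4, which drives Fgf15, Nr0b2, Fabp6 and the Slc51 pair. FGF15 travels to the liver, where with the receptor FGFR4 and its partner KLB it holds down Cyp7a1, the rate-limiting enzyme of bile acid synthesis. Gut bacteria reshape this pool. Bile acids of germ-free mice stay conjugated to taurine and include muricholic acids, which antagonise FXR in mice.

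Promoter sequences are given for 3 of the genes, because they show a gene of the pathway with matches to the bile acid receptor element beside genes without one. FXR binds an inverted repeat of a hexamer with 1 base between both copies, AGGTCANTGACCT, which reads alike on both strands. The search covered 250 bases before to 50 bases after each gene's start in RefSeq promoters of GRCm38.p6. There 7 of the 9 genes had an entry, those without being Fgf15 and Abcc3. Some of these starts differ from the gene coordinates given below. By those coordinates, the 250 bases before the start reach into the gene for Slc10a2, Slc51b and Abcc2 and lie inside it for Nr1h4. The Abcc2 stretch printed here lies wholly inside the gene. With up to 2 mismatches the element occurred in 374 of 32851 promoters (1.14%), and Fabp6 was the only one of the 7 among them. The first line below runs along the minus strand of chr11:43601662-43601812, with its 2 matches in capitals. The second is the 250 bases before the start of Slc10a2 on the minus strand of chr8:5105288-5105537, which held no match. The third surrounds the Abcc2 copy of AAGGTCA, the single-copy site of the receptor Nr5a2, on the plus strand of chr19:43782228-43782294.
Fabp6: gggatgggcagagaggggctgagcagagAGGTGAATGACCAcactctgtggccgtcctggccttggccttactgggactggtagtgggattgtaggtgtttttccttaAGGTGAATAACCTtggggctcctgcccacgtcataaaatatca
Slc10a2: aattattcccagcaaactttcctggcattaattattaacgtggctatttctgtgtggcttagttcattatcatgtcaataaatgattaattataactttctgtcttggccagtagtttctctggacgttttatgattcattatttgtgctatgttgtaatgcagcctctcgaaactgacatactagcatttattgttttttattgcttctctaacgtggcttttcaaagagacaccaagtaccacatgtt
Abcc2: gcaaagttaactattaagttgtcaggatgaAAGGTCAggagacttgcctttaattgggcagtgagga
Against the element, counted from 1 at its first base, the Fabp6 match at -222 to -210 from the start carries C5G and T13A. The match at -142 to -130 carries C5G and G9A, so both share the first change. The closest stretches of Slc51a and Slc51b had 3 mismatches, and those of Nr1h4, Nr0b2, Slc10a2 and Abcc2 had 4. The Nr5a2 site, searched on both strands and able to overlap the element, was present in 1550 promoters (4.72%), and of the 7 genes in Abcc2 alone. A match of letters shows no binding, and its absence from this window says nothing of the factor.

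Enterocyte transcripts were abundant in every library. The 10 enterocyte markers, led by Apoa1, Anpep and Fabp2, summed to between 17932 CPM (AF 3) and 38829 CPM (SPF 4), while 12 stromal, endothelial and myeloid markers summed to at most 9.43 CPM and 7 hepatocyte markers to at most 35.4 CPM in any library. Libraries held 16109488 to 19417054 expected counts, and CPM are counts per fixed unit of a library total that was adjusted by the trimmed mean of M-values (TMM). Libraries within a group differed in marker RNA: SPF 4 had little crypt and Paneth cell marker RNA and much proximal enterocyte marker RNA, and GF 1 had the most Paneth cell marker RNA. AF and GF libraries held Y-linked transcripts at 52.2 to 61.7 CPM in sum and both SPF libraries held 0, so sex cannot be told apart from the other differences of AF or GF from SPF. Each group's tables also carry a date-like mark of their own, so a batch by date, if that is what it marks, cannot be told apart from the group. No label ties a library to an animal, and the p-values therefore speak only of the spread among these 6 libraries, which may be technical. GF versus SPF and AF versus SPF share the SPF libraries, and AF versus GF shares libraries with both.

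Fgf15 was the member with the widest separation between groups, high without a microbiota and low in colonised mice. Fgf15 (ENSMUSG00000031073, chromosome 7, 144896531 to 144900953, plus strand of GRCm38) had 12.2 CPM in AF 2 and 21.9 CPM in AF 3, 19.7 CPM in GF 1 and 11.3 CPM in GF 3, and 3.39 CPM in SPF 3 and 1.71 CPM in SPF 4. Every AF and GF library lay above both SPF libraries, and AF and GF overlapped. The underlying expected counts were 155 and 369 in AF, 540 and 166 in GF, and 74 and 25 in SPF. Group means were 17.0 ± 6.90 CPM in AF, 15.5 ± 5.96 CPM in GF and 2.55 ± 1.18 CPM in SPF (SD, n = 2 each).

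In edgeR's quasi-likelihood test Fgf15 was 6.00-fold higher in GF than in SPF, a log2 fold change of 2.58 (SE 0.51, 95% interval 1.34 to 3.83, adjusted p = 0.738 over 13644 genes). It was 6.60-fold higher in AF than in SPF, a log2 fold change of 2.72 (SE 0.51, interval 1.47 to 3.97, edgeR adjusted p = 0.304). Neither passed the adjusted threshold of 0.05. AF and GF differed by 0.14 (SE 0.47), with an interval of -1.01 to 1.28 that leaves room for a change of either sign. The separation from SPF kept its sign whichever library was left out, at 2.12 to 3.17 for GF and 2.22 to 3.31 for AF. Calls depended on the test: DESeq2 gave adjusted p = 0.00198 for GF versus SPF and 2.19e-04 for AF versus SPF, and edgeR's likelihood ratio test gave 0.00375 and 5.92e-04. Reads of 2 antisense genes that overlap Fgf15 cannot be told apart from its own, since no strand setting is given. Those genes were assigned at most 11.7 counts in a library, which does not bound the reads that could be theirs.

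Within each group the library with more Fgf15 also had more crypt and Paneth cell RNA. The 9 Paneth cell markers, led by Lyz1, Defa24 and Itln1, summed to 1129 CPM in AF 2 and 2417 CPM in AF 3, 6197 CPM in GF 1 and 1045 CPM in GF 3, and 1540 CPM in SPF 3 and 44.0 CPM in SPF 4. The 10 crypt and proliferation markers summed to 235 and 369 CPM in AF, 605 and 246 CPM in GF, and 526 and 82.8 CPM in SPF, with the libraries in the same order. SPF 3 had more of both than AF 2 or GF 3 and less Fgf15 than either. The part of crypt and Paneth cells in the Fgf15 values was not tested. In bulk RNA, fewer cells of a type and less RNA per cell cannot be told apart.

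Nr1h4 stood the other way round in CPM, and both receptor genes had their highest single CPM values in SPF 4. Nr1h4 (ENSMUSG00000047638, chromosome 10, 89454234 to 89533585, minus strand), which encodes FXR, had 24.4 and 29.0 CPM in AF, 32.5 and 29.3 CPM in GF, and 36.5 and 48.8 CPM in SPF. The 3 groups did not overlap on this TMM scale, although AF 3 and GF 3 were nearly level. In the deposited TPM, which lack that scaling, they did overlap, with 9.81 and 15.4 TPM in AF, 27.2 and 13.7 TPM in GF, and 28.3 and 23.4 TPM in SPF. Means were 26.7 ± 3.23 CPM in AF, 30.9 ± 2.27 CPM in GF and 42.6 ± 8.75 CPM in SPF. The log2 fold change of Nr1h4 was -0.67 for AF versus SPF (SE 0.22, interval -1.21 to -0.13, edgeR adjusted p = 0.389), -0.46 for GF versus SPF and -0.21 for AF versus GF.

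Nr0b2 (ENSMUSG00000037583, chromosome 4, 133553376 to 133556536, plus strand) encodes SHP, a receptor without a DNA-binding domain that represses other receptors and is a classic FXR target. It had 6.36 and 5.29 CPM in AF, 3.72 and 6.31 CPM in GF, and 6.00 and 11.2 CPM in SPF, so all 3 groups overlapped on the TMM scale. In the deposited TPM they did not, with 4.80 and 5.29 in AF, 5.87 and 5.55 in GF, and 8.74 and 10.08 in SPF. The AF versus SPF log2 fold change was -0.56 (interval -1.63 to 0.52) and that of GF versus SPF -0.78 (interval -1.86 to 0.30). Unlike Fgf15, Nr0b2 was not lowest in the SPF libraries.

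Slc10a2 and Fabp6, the uptake carrier and the cytosolic binder, were highest in a single GF library. Slc10a2 (ENSMUSG00000023073, chromosome 8, 5083219 to 5105351, minus strand) had 6.13 and 7.07 CPM in AF, 21.6 and 6.72 CPM in GF, and 6.37 and 3.02 CPM in SPF. GF 1 stood far above the other 5 libraries, which spanned 3.02 to 7.07 CPM. The GF versus SPF log2 fold change of 1.59 (SE 0.63, interval 0.064 to 3.12, edgeR adjusted p = 0.738) was 0.50 without GF 1. AF versus GF was -1.11 (interval -2.62 to 0.40), but -0.02 without GF 1.

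Fabp6 (ENSMUSG00000020405, chromosome 11, 43596049 to 43601540, minus strand) was the most abundant member per length in every library. It had 414 and 267 CPM in AF, 904 and 237 CPM in GF, and 356 and 190 CPM in SPF. GF 1 again stood highest, GF 3 lay below both AF libraries, and the groups overlapped in each pairing. The fitted log2 differences of Fabp6, 1.06 for GF versus SPF, -0.74 for AF versus GF and 0.32 for AF versus SPF, had intervals that included 0. Each changed sign on leaving out 1 library: without GF 1 they read -0.21 for GF versus SPF and 0.53 for AF versus GF, and without SPF 4 AF versus SPF read -0.07. GF 1 also had the highest Paneth cell sum, while its distal small intestine marker sum of 6120 CPM was below the 7172 CPM of GF 3. The part of cell makeup in these values was not tested.

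The paired exporter genes were steadier. Slc51a (ENSMUSG00000035699, chromosome 16, 32474504 to 32487879, minus strand) had 150 and 122 CPM in AF, 216 and 145 CPM in GF, and 128 and 145 CPM in SPF. AF and SPF overlapped in CPM, and their difference was -0.0056 on the log2 scale with an interval of -0.71 to 0.70. In TPM, AF at 75.8 and 82.1 lay below GF at 228 and 85.4 and below SPF at 125 and 87.9. Slc51a overlaps Pcyt1a, a gene on the other strand with 1638 to 4317 counts, so some reads could belong to either gene. Slc51b (ENSMUSG00000053862, chromosome 9, 65412714 to 65422955, minus strand), the partner subunit, had 58.3 and 45.2 CPM in AF, 56.1 and 59.5 CPM in GF, and 61.7 and 93.1 CPM in SPF. SPF lay above both other groups, narrowly so against GF 3, and in TPM GF 1 at 158.9 exceeded SPF 4 at 151.2. The AF versus SPF log2 fold change of Slc51b was -0.58 (SE 0.27, interval -1.24 to 0.08, edgeR adjusted p = 0.479), and that of GF versus SPF was -0.42. Rasl12, which overlaps Slc51b on the other strand, had at most 68.0 counts.

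Abcc3 was the second member with a wide separation, lowest in AF and highest in SPF. Abcc3 (ENSMUSG00000020865, chromosome 11, 94343295 to 94392997, minus strand), a basolateral pump of glucuronides and bile salts, had 44.1 and 36.8 CPM in AF, 68.6 and 99.2 CPM in GF, and 100.1 and 173.8 CPM in SPF. The groups did not overlap, but GF 3 and SPF 3 were less than 1 CPM apart. Means were 40.5 ± 5.11 CPM in AF, 83.9 ± 21.6 CPM in GF and 137.0 ± 52.1 CPM in SPF (SD, n = 2 each).

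Abcc3 was 3.39-fold lower in AF than in SPF, a log2 fold change of -1.76 (SE 0.35, interval -2.62 to -0.90, edgeR adjusted p = 0.324). AF versus GF gave -1.05 (SE 0.35, interval -1.90 to -0.21, edgeR adjusted p = 1.00), and GF versus SPF gave -0.71 (interval -1.55 to 0.13). The AF versus SPF value ran from -2.11 to -1.31 as libraries were left out in turn. DESeq2 called it, at adjusted p = 0.00261, as did edgeR's likelihood ratio test at 0.00419. RSEM's effective length of Abcc3 ranged from 2076 to 3127 bases between libraries, so the mix of isoforms it assigned was not constant.

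Abcc2 (ENSMUSG00000025194, chromosome 19, 43782192 to 43840740, plus strand), the related pump of the brush border, did not follow Abcc3. It had 174 and 112 CPM in AF, 175 and 196 CPM in GF, and 127 and 429 CPM in SPF. The 2 SPF libraries bracketed all the others but AF 3. SPF 4, which held the high value, also had 41222 CPM of summed proximal markers, against 18099 CPM in SPF 3 and 11797 to 18868 CPM in AF and GF. Without SPF 4 the log2 fold change was 0.17 for AF versus SPF and 0.54 for GF versus SPF, against -0.96 and -0.58 with it.

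**Figure D1:**
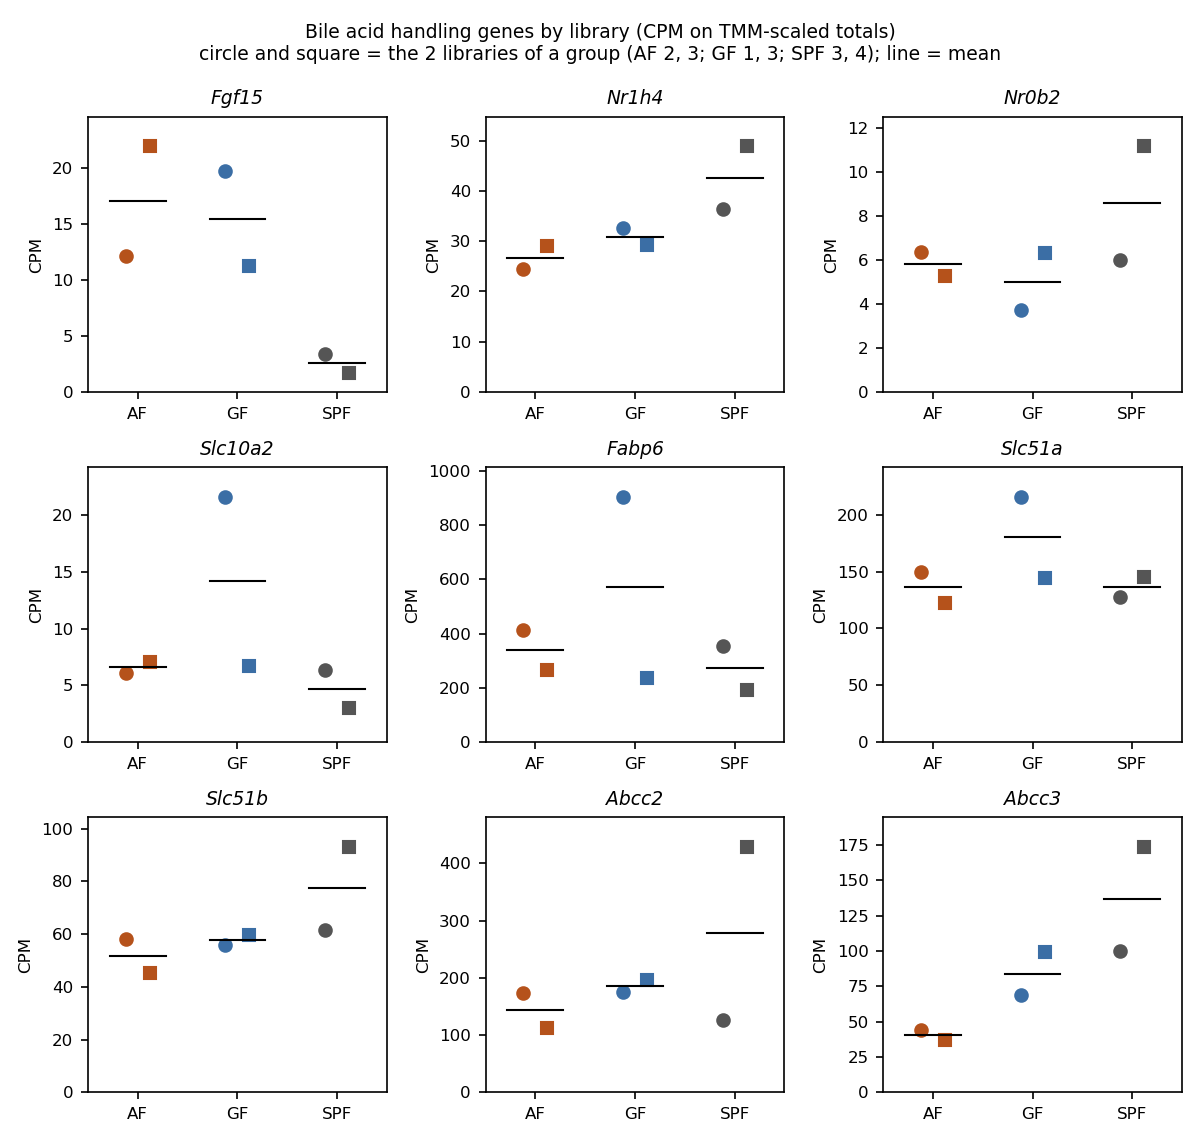
CPM of the 9 genes (vertical axes, each from 0) in the 2 libraries of AF, GF and SPF, with the group mean as a line. Fgf15 lies at 11.3 to 21.9 CPM in AF and GF and at 3.39 CPM or less in SPF, Abcc3 steps up across AF, GF and SPF, and the GF means of Slc10a2 and Fabp6 rest on GF 1.

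By edgeR's adjusted p, 0 of the 9 genes passed in GF versus SPF, where 0.0147% of all genes tested did. Likewise 0 passed in AF versus GF (background 0.0147%) and 0 in AF versus SPF (background 0.044%). At an unadjusted p below 0.05, Fgf15 and Slc10a2 were higher in GF than in SPF, where 3.2% of all genes were. Abcc3 alone was lower in AF than in GF, where 2.07% were. In AF versus SPF, Fgf15 was higher (background 4.76%) and Nr1h4 and Abcc3 were lower (background 6.52%). DESeq2 called 1 member in GF versus SPF (background 0.586%), 0 in AF versus GF (0.374%) and 2 in AF versus SPF (1.97%). The likelihood ratio test also called 1, 0 and 2, with backgrounds of 0.711% for GF versus SPF, 0.388% for AF versus GF and 2.18% for AF versus SPF.

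Libraries without overlap were common among all genes, so such counts carry little on their own. In GF versus SPF 5 of the 9 genes had no overlap, against 33.8% of all genes. In AF versus GF it was 3 of 9 against 33.6%, and in AF versus SPF 4 of 9 against 44.6%. In CPM Nr1h4 and Abcc3 were ordered AF below GF below SPF with no overlap, as were 4% of all genes. The order of Nr1h4 held on the TMM scale and not in TPM, while Nr0b2 had that order in TPM and not in CPM. In CPM 0 members had the reverse order, which 2.76% of all genes had. The members' median log2 fold change was -0.42 for GF versus SPF, where the median of all genes was 0.02. It was -0.38 for AF versus GF, where all genes had -0.02, and -0.56 for AF versus SPF, where all genes had 0.01.

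**Figure D2:**
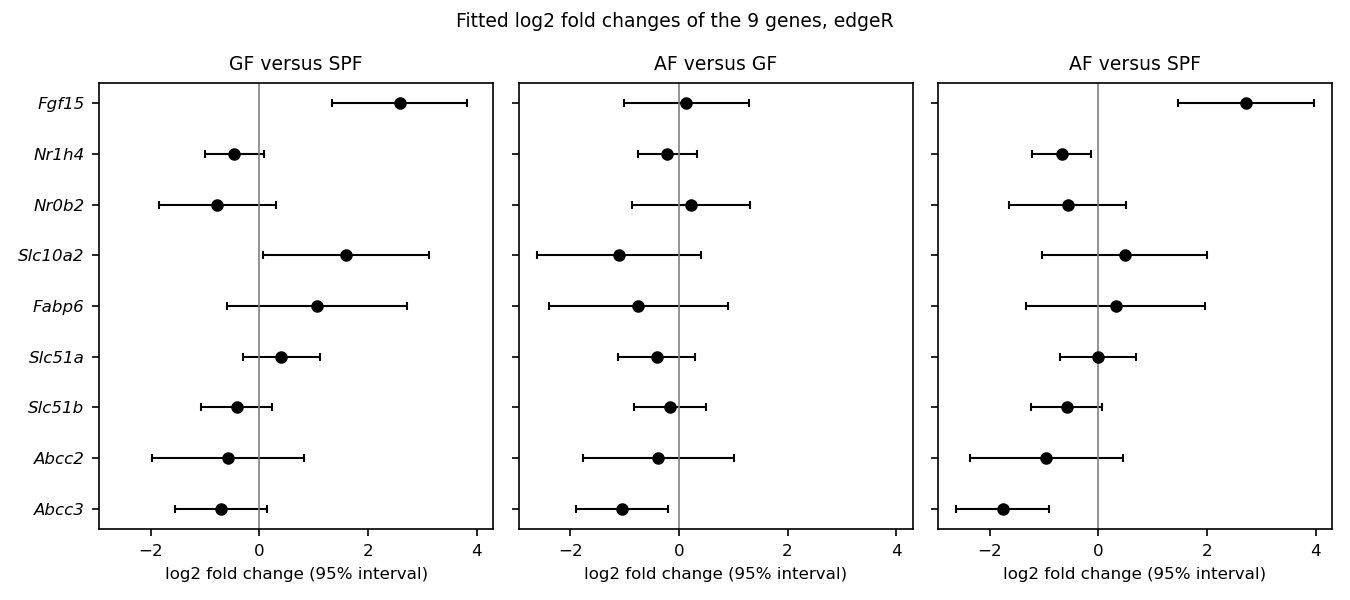
Log2 fold changes from edgeR (horizontal axis; points) with 95% intervals (bars) for the 9 genes in each comparison, positive meaning higher in the first group named. The Fgf15 intervals against SPF start at 1.34 (GF) and 1.47 (AF), and the Abcc3 interval for AF versus SPF ends at -0.90.

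Setting genes against each other within a library removes what scales the whole library. Where a constant is added to low TPM, as below, the removal is only partial. Levels per length, in the deposited TPM (transcripts scaled to a fixed total), placed Fabp6 first in every library, at 662 to 4519 TPM, with the Slc51 pair next at 75.8 to 228 TPM. In TPM Fgf15 stood above Nr0b2 in all 4 AF and GF libraries and below it in both SPF libraries. Slc10a2 was the lowest in every library but GF 1, at 0.65 to 2.23 TPM in those libraries and 8.19 TPM in GF 1, where Nr0b2 was lower. In TPM, which is not scaled by TMM, Fgf15 was 5.89 and 12.9 in AF, 19.2 and 5.96 in GF, and 3.08 and 0.90 in SPF.

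Relative to Slc10a2, which distal enterocytes also express, Fgf15 was again lowest in SPF. The difference of Fgf15 minus Slc10a2 in log2(TPM + 1) was 1.71 and 2.36 in AF, 1.14 and 1.52 in GF, and 0.34 and 0.20 in SPF. The 3 groups did not overlap. With a pseudocount of 0.1 the differences were 2.31 and 2.85 in AF, 1.22 and 1.995 in GF, and 0.45 and 0.42 in SPF, again without overlap. How often other pairs of genes would separate in this way was not computed. In TPM Fgf15 itself overlapped between AF and GF, and Slc10a2 was highest in GF 1, at 8.19 TPM. As a ratio of counts Fgf15 to Slc10a2 was 1.99 (95% interval 1.504 to 2.64, counting error only) in AF 2 and 3.10 (2.52 to 3.85) in AF 3. It was 0.911 (0.809 to 1.02) in GF 1 and 1.68 (1.30 to 2.17) in GF 3, and 0.532 (0.396 to 0.711) in SPF 3 and 0.568 (0.333 to 0.949) in SPF 4. Group means of the log2(TPM + 1) difference were 2.03 ± 0.46 in AF, 1.33 ± 0.27 in GF and 0.27 ± 0.09 in SPF (SD, n = 2 each). An exact two-sided permutation test of 2 against 2 libraries cannot go below p = 0.333, so no test of this difference was made.

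Fabp6 minus Slc10a2 was 8.87 and 8.29 in AF, 8.94 and 8.10 in GF, and 8.99 and 8.38 in SPF on the same scale, with all groups overlapping. With a pseudocount of 0.1 it was 9.67 and 8.88 in AF, 9.09 and 8.77 in GF, and 9.46 and 9.51 in SPF, where GF and SPF no longer overlapped. Nr1h4 minus Slc10a2 was 2.36 and 2.61 in AF, 1.62 and 2.60 in GF, and 3.18 and 3.89 in SPF, with SPF above the rest. The exporter pair was near balance in AF, where Slc51a minus Slc51b was -0.05 and 0.02, and split in GF, at 0.52 and -0.14. In SPF it was -0.37 and -0.78, below all 4 other libraries.

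**Figure D3:**
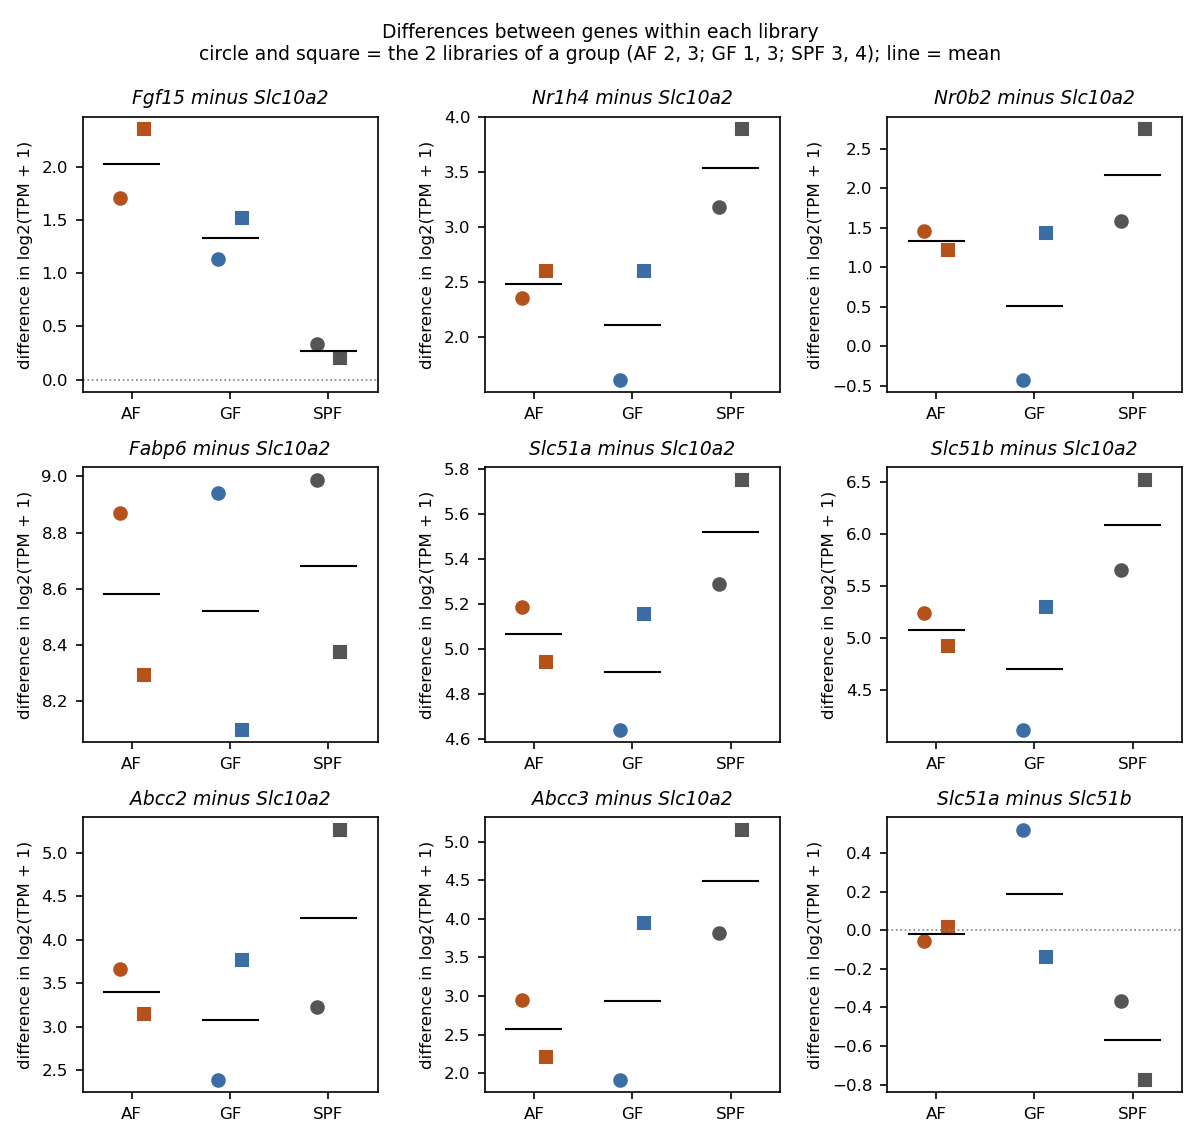
Differences between genes within each library in log2(TPM + 1) (vertical axes; those panels do not all include 0), for AF, GF and SPF, with group means as lines. Fgf15 minus Slc10a2 steps down across AF, GF and SPF without overlap, although Fgf15 alone overlaps between AF and GF in TPM. Fabp6 minus Slc10a2 lies between 8.10 and 8.99 in all 6 libraries.

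The genes most like Fgf15 over the 6 libraries, by Pearson correlation of log2 CPM among 8727 genes with a mean of at least 5 CPM, were Hnrnpdl (0.998), Erp29 (0.996), Agbl5 (0.988), Ndrg1 (0.987) and Svip (0.986). The measure compares shape and not size: Hnrnpdl had 57.9 and 62.9 CPM in AF, 61.9 and 58.3 CPM in GF, and 47.1 and 42.5 CPM in SPF. Those most like Slc10a2 were Vsig10 (0.990), Ints7 (0.981), Ago1 (0.979), Vps25 (0.974) and Pccb (0.973). Among the members, Slc10a2 correlated most strongly with Nr0b2, at -0.949, then at 0.900 with Fabp6 and 0.718 with Fgf15. Fgf15 correlated at -0.883 with Slc51b, -0.838 with Abcc3, -0.816 with Nr1h4 and -0.812 with Nr0b2. All of these share 6 libraries and their differences in depth and cell type marker RNA, and so few points let many genes reach high values.

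Around the members, other genes of bile acid transport and conversion gave no call. Of 32 such genes 22 were expressed enough to test, 0 passed in any comparison, and their median log2 fold change was -0.30 for GF versus SPF, -0.08 for AF versus GF and -0.40 for AF versus SPF. Cyp3a11, a cytochrome that hydroxylates drugs and bile acids, had 58.0 and 43.1 CPM in AF, 176 and 218 CPM in GF, and 332 and 1196 CPM in SPF. It was ordered like Abcc3, with no overlap, and its AF versus SPF log2 fold change was -3.92 (SE 0.67, edgeR adjusted p = 0.293). Abca1, the basolateral cholesterol exporter, had 18.7 and 12.5 CPM in AF, 6.63 and 5.22 CPM in GF, and 10.03 and 8.02 CPM in SPF. AF lay above both other groups there, by 1.39 on the log2 scale over GF (edgeR adjusted p = 1.00).

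Papss2, which makes the sulfate donor, had 398 and 437 CPM in AF, 286 and 248 CPM in GF, and 432 and 978 CPM in SPF. GF was the lowest group for Papss2. Abcc6, a transporter of the same family as Abcc2, had 147 and 112 CPM in AF, 68.5 and 93.3 CPM in GF, and 51.6 and 83.1 CPM in SPF, with AF above the rest. Cyp7a1 and Cyp8b1, enzymes of hepatic synthesis, had 0 counts in every library.

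Of 30 nuclear receptors and regulators 27 were tested, and Isx was the 1 called. It was called in AF versus GF, where 0.0147% of all genes were, and in AF versus SPF, where 0.044% were. The list was made with earlier results of these data known, so the call is not independent of that choice. Isx, an intestinal homeobox repressor of vitamin A uptake genes, had 1.34 and 0.83 CPM in AF, 81.1 and 82.0 CPM in GF, and 71.4 and 94.9 CPM in SPF. It fell by 6.25 on the log2 scale in AF relative to GF (SE 0.34, edgeR adjusted p = 0.0186) and fell by 6.27 in AF relative to SPF (SE 0.34, adjusted p = 0.0156). Ncor1, a corepressor of nuclear receptors, had 121 and 119 CPM in AF, 161 and 181 CPM in GF, and 243 and 320 CPM in SPF. Its groups did not overlap, and AF versus SPF gave -1.23 (edgeR adjusted p = 0.343).

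Gata4, which restrains ileal genes such as Slc10a2 in the proximal gut, had 77.8 and 76.2 CPM in AF, 69.0 and 58.3 CPM in GF, and 88.2 and 123.8 CPM in SPF. Cdx2, a master factor of intestinal identity, had 57.0 and 65.0 CPM in AF, 73.4 and 64.3 CPM in GF, and 89.1 and 92.1 CPM in SPF. Both were highest in SPF without overlap and passed in no comparison. Malrd1, a gene that raises Fgf15 output in mice and was singled out after its values were seen, had 69.5 and 60.8 CPM in AF, 112 and 88.7 CPM in GF, and 89.6 and 120.3 CPM in SPF. Malrd1 was lowest in AF, at -0.63 against GF and -0.69 against SPF on the log2 scale, and passed in neither (edgeR adjusted p = 1.00 and 0.407). Its part in the Fgf15 values was not tested. Fgfr4 and Klb, the FGF15 receptor and its partner, reached at most 2.84 and 3.12 CPM and were at 0 in SPF 4.

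Among other genes listed as responsive to FXR in some tissue, Nos2 stood out. Of 11 such genes 9 were tested, and Nos2, the inducible nitric oxide synthase, was the 1 called. It was called in AF versus SPF, where 0.044% of all genes were. This list too was made with earlier results of these data known, so the call is not independent of that choice. Nos2 had 0.31 and 0.18 CPM in AF (4 and 3 counts), 12.5 and 8.75 CPM in GF, and 42.0 and 24.6 CPM in SPF. It fell by 7.08 on the log2 scale in AF relative to SPF (SE 0.51, edgeR adjusted p = 0.0222), and its value for AF versus GF was -5.44 (adjusted p = 0.152). Il18, an epithelial cytokine, had 39.9 and 44.1 CPM in AF, 25.04 and 20.6 CPM in GF, and 44.1 and 50.2 CPM in SPF, so GF was the low group. Apoc2, a cofactor of lipoprotein lipase, had 659 and 494 CPM in AF, 373 and 759 CPM in GF, and 949 and 1992 CPM in SPF. Osgin1, an oxidative stress response gene, had 103 and 74.5 CPM in AF, 63.0 and 108.6 CPM in GF, and 113 and 239 CPM in SPF. Apoc2 and Osgin1 were thus higher in SPF than in the other groups, and neither passed.

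**Figure D4:**
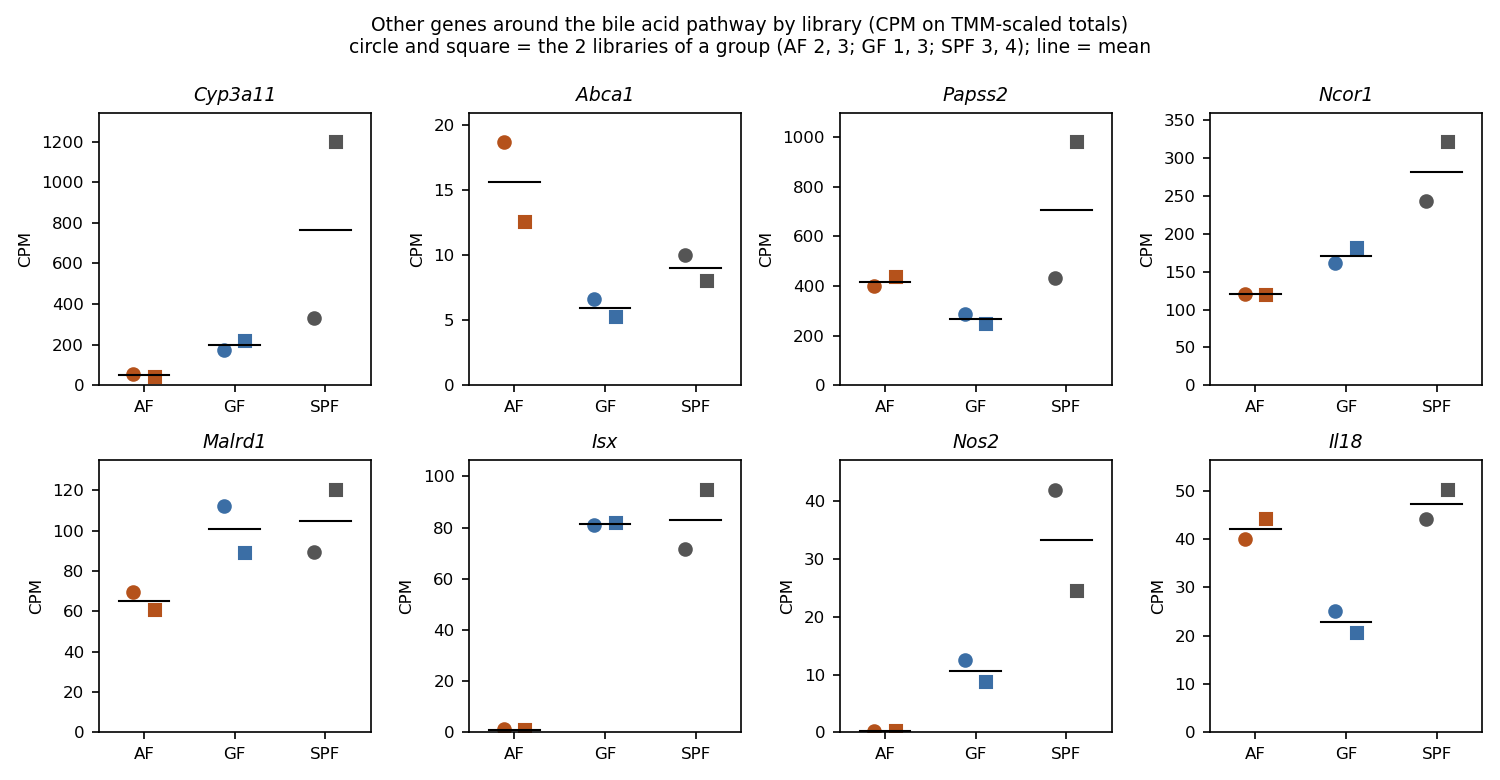
CPM of 8 other genes around the pathway (vertical axes, each from 0) in the 2 libraries of AF, GF and SPF, with group means as lines. Isx and Nos2 are close to 0 in AF, and Cyp3a11 and Ncor1 step up across AF, GF and SPF.

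Regional markers varied between libraries as well. The 20 distal small intestine markers, which hold no member, summed to 6310 and 4523 CPM in AF, 6120 and 7172 CPM in GF, and 5571 and 8746 CPM in SPF. These groups overlapped. In SPF 4, the library with the highest sum, 8 of the 20 markers had their highest value and 5 had their lowest, namely Plb1, Nts, Tmigd1, Pyy and Gcg. Fgf15, Slc10a2 and Fabp6 also had their lowest value there. AF 3, the library with the lowest sum, had the lowest value of 10 of the 20 markers and the highest of 0. Fgf15 had its highest value in AF 3. Nts, Pyy and Gcg are also among the enteroendocrine markers below. The median log2 fold change of the 20 distal markers was 0.05 for GF versus SPF, -0.43 for AF versus GF and -0.33 for AF versus SPF. The 25 proximal markers had medians of -0.71 for GF versus SPF, 0.45 for AF versus GF and -0.46 for AF versus SPF, and 0 of these distal and proximal markers were called. The 12 enteroendocrine markers, led by Chgb, Gip and Chga, summed to 2379 and 3272 CPM in AF, 1677 and 3887 CPM in GF, and 1296 and 302 CPM in SPF, also lowest in SPF. Of these, 12 had a positive fitted change in GF versus SPF and 11 in AF versus SPF, and 0 were called. The 8 tuft cell markers summed to 307 and 285 CPM in AF, 148 and 202 CPM in GF, and 93.6 and 17.6 CPM in SPF, with 0 called and 1 of the 8 at 0 in SPF 4. Goblet cell markers summed to 14029 and 12701 CPM in AF, 11926 and 16889 CPM in GF, and 29182 and 2807 CPM in SPF, so the SPF libraries bracketed the rest. Lymphocyte markers summed to 19.1 and 14.3 CPM in AF, 36.0 and 337 CPM in GF, and 199.6 and 73.7 CPM in SPF. The part of these cell types in the members' values was not tested.

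**Figure D5:**
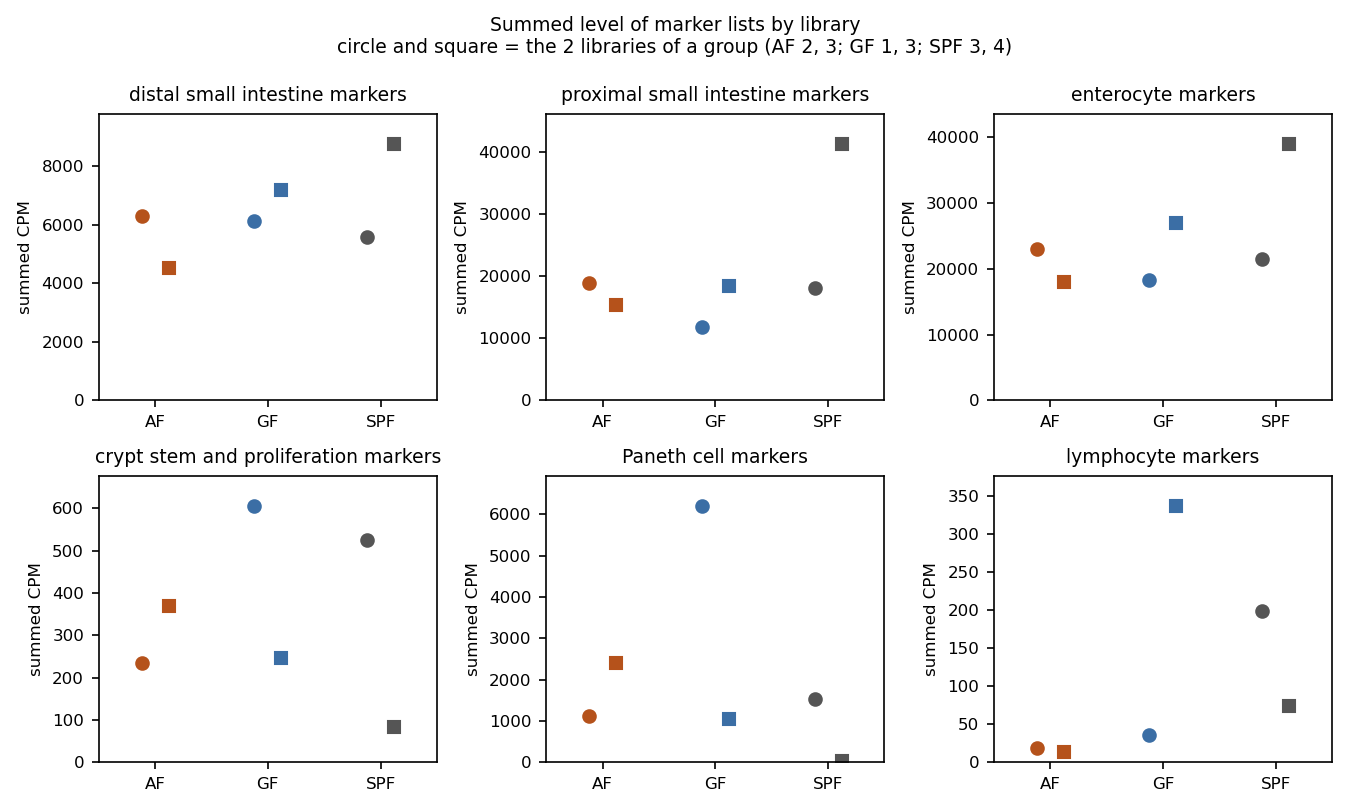
Summed CPM of 6 marker lists (vertical axes, each from 0) in the 2 libraries of AF, GF and SPF. Distal markers overlap between groups, SPF 4 is highest in proximal and enterocyte markers and lowest in crypt and Paneth markers, and GF 1 is highest in Paneth markers.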

How the data were processed

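The authors deposited 1 RSEM table for each of the 6 libraries. It holds expected counts, which the authors left unscaled and in which a read that fits several genes is divided, and TPM, which RSEM sets per effective length to a fixed sum (both per the file headers). STAR 2.5.2b, RSEM, GRCm38/mm10 and edgeR 3.16.5 appear in the submitters' processing notes. RSEM's version, the annotation release, read filters and strand setting were not given in the sources used here.

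Expected counts were rounded (23.5% of values above 0 were not whole). RSEM's posterior SD was at most 0.922% of the count for the 9 genes. Symbols and coordinates come from GENCODE M21, in which 51633 of 51912 genes matched. After filterByExpr, 13644 genes entered 1 edgeR quasi-likelihood fit of all 6 libraries with TMM scaling (factors 0.791 to 1.41, 3 residual degrees of freedom), tested on simulated data. Adjusted p are Benjamini-Hochberg over all genes tested, called below 0.05. A floor of 3 counts is 0.109 to 0.236 CPM. Library pairs differed far beyond sampling noise (chi-square per gene 44.6 in AF, 239 in GF and 195 in SPF), and all 6 were kept.

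The 9 genes and the other lists were chosen with earlier results of these data known. Named genes were all members, the up to 4 genes of each pathway list with the smallest p for any difference, every gene called, and the 5 genes most like Fgf15 and Slc10a2. Malrd1, Fgfr4, Klb, Cyp7a1 and Cyp8b1 fall outside this rule and were named after their values were seen. Alternatives were DESeq2, edgeR's likelihood ratio test, median-of-ratios scaling, library totals alone, other low-count filters, limma on log2(TPM + 1) and log2(TPM + 0.1), only the groups compared, and each library left out. The Fgf15 to Slc10a2 count ratio, and SPF 4 and GF 3 left out together, were added after seeing the data. DESeq2 1.42.0, edgeR 4.0.16 and limma 3.58.1 ran in R 4.3.3, and descriptions were made in Python 3.11.15.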

Additional observations from a re-analysis of the deposited data

How the results depend on the processing

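With 2 libraries a group and 3 residual degrees of freedom the intervals are wide, and batch and diet cannot be told apart from the group. Nor can sex where SPF is compared, while AF and GF both held Y-linked transcripts. Against 0 members called by edgeR's quasi-likelihood test in each comparison, the likelihood ratio test and DESeq2 each called 1 in GF versus SPF (Fgf15) and 2 in AF versus SPF (Fgf15 and Abcc3). Of all genes the likelihood ratio test called 0.711% in GF versus SPF and 2.18% in AF versus SPF, and DESeq2 0.586% and 1.97%. With no low-count filter 2 were called in GF versus SPF (Fgf15 and Slc10a2; 2.13% of all genes) and 2 in AF versus SPF (Fgf15 and Abcc3; 3.53% of all genes). Leaving out 1 library gave 0 in GF versus SPF and AF versus GF, and 0 to 2 in AF versus SPF, the 2 being Fgf15 (adjusted p = 0.0412) and Abcc3 (adjusted p = 0.0274) without SPF replicate 3, where 4.37% of all genes were called. With SPF 4 and GF 3 both left out, where the spread rests on the AF pair alone, 2 members were called in GF versus SPF (3.02% of all genes), 3 in AF versus GF (6.95%) and 2 in AF versus SPF (8.46%). The cause of these changes was not tested.

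Some signs turned. In AF versus GF, Fgf15 was -0.26 and Nr0b2 -0.062 with library totals alone, -0.28 and -0.15 with limma on log2(TPM + 1) with or without its filter, and -0.30 and -0.18 with a pseudocount of 0.1. In AF versus SPF, Fabp6 was -0.015 with library totals alone and -0.053 in the 3 limma fits, and Slc51a was 0.0028 with a filter of 1 CPM. With SPF 4 and GF 3 both left out, Abcc2 was 0.46 in GF versus SPF and 0.17 in AF versus SPF, Fgf15 was -0.20 in AF versus GF, and Fabp6 was -0.068 and Slc51a 0.085 in AF versus SPF. As single libraries were left out, GF versus SPF ran from -0.21 to 1.72 for Fabp6 and from -1.21 to 0.54 for Abcc2. AF versus GF ran from -0.37 to 0.60 for Fgf15, -0.11 to 0.65 for Nr0b2 and -1.41 to 0.53 for Fabp6. AF versus SPF ran from -0.068 to 0.84 for Fabp6, -0.16 to 0.11 for Slc51a and -1.58 to 0.17 for Abcc2. Fgf15 minus Slc10a2 kept its order of groups with a pseudocount of 0.1 and as a count ratio, with differences of 1.06 to 1.18 for GF versus SPF, 0.70 to 1.01 for AF versus GF and 1.76 to 2.18 for AF versus SPF. Exact and 1-mismatch searches found the FXR element in 3 and 27 promoters, none of a member. No paired analysis was possible because any 2 of the groups share only replicate number 3.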
